A study of Mus musculus with 7 samples.

Results

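The MHC class II genes described here are 8 genes (Cd74, H2-Aa, H2-Ab1, H2-Eb1, H2-DMa, H2-DMb1, H2-Oa and Ciita), out of 53458 genes measured by RNA sequencing. They were chosen by name for their function, with earlier results of these data known, and all 8 passed the filter on low counts. The libraries came from aged C57/BL6 mice, from LT-HSCs, the haematopoietic stem cells that can rebuild blood over the long term. There were 4 wild-type libraries (WT, labelled Srp72+/+) and 3 libraries heterozygous for Srp72 (Srp72+/-), a gene whose product belongs to the signal recognition particle. The sort kept cells positive for Sca1, cKit and CD150 and negative for Ter119, B220, CD3, Mac1, Gr1, Flt3 and CD48. No treatment is given for either group, and neither the age of the mice nor the altered part of Srp72 is given in the sources used here.

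MHC class II molecules are pairs of an alpha and a beta chain that carry peptides from endocytosed proteins to the cell surface and show them to CD4+ T cells. New pairs are held by the invariant chain, the product of Cd74, until it is degraded in endosomes. The H2-DM proteins then exchange its last fragment for antigenic peptide, and the H2-O proteins restrain H2-DM. Transcription of these genes depends on the coactivator CIITA, and strong expression is known mainly from B cells, dendritic cells and activated macrophages. B cells and macrophages carry surface antigens that the sort was set to remove.

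The promoters of class II genes are known for an X box followed at a fixed distance by a Y box, to which the RFX and NF-Y complexes bind and on which CIITA acts. These sequences are shown because the pair is the known mark of class II promoters and was found in most of the members that could be searched. RefSeq promoter windows (build GRCm38.p6, 250 bases before to 50 after the start) were at hand for 5 of the 8 members: H2-Aa, H2-Eb1, H2-DMa, H2-DMb1 and H2-Oa. In the 3 stretches below the capitals mark GNAAC, the core of the X box, and GATTGG, the core of the Y box, which is CCAAT read on the other strand.
H2-Aa: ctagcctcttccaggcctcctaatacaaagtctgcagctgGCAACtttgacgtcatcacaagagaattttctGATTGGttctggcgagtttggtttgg
H2-Eb1: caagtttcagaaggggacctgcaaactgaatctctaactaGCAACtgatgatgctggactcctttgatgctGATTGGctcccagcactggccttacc
H2-Oa: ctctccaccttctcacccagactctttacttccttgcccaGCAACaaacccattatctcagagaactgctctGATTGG
These are the minus strand of chr17:34287847-34287944 for H2-Aa, and the plus strand of chr17:34305736-34305832 for H2-Eb1 and chr17:34092263-34092340 for H2-Oa, each ending at or before the annotated start of its gene.

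The pair GNAAC, 26 or 27 bases of any kind, and GATTGG was found in 4 of the 5 members with a window. The spacing was 27 bases in H2-Aa, H2-Oa and H2-DMb1 and 26 in H2-Eb1. In H2-DMb1, where the GENCODE start lies further upstream, the pair falls in the first annotated exon. The H2-DMa windows held GATTGG without the pair. Searched on both strands, the pair was present in 0.128% of the 32851 promoter windows of that length in the table, and GATTGG alone in 16.1%. The form of the pair was written down after reading the members' windows, so its presence in them describes those sequences and is no test. Among the 39 genes with the pair was also H2-Eb2, a class II beta chain gene that had no more than 5 reads in any library here.

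The libraries held between 18054322 and 35247472 estimated reads, with Srp72+/- 3 the deepest. Srp72 was at 99.6, 136.6, 103.0 and 88.4 CPM (read counts scaled to library size with TMM factors) in WT 1 to WT 4 and at 71.9, 45.7 and 109.8 CPM in Srp72+/- 1 to Srp72+/- 3, so Srp72+/- 3 lay within the WT range. WT 2 stood apart in stem cell transcripts: the stem cell regulator gene Hlf was at 13.2 CPM there against 272 to 657 CPM in the other 6 libraries, the stem cell marker gene Procr at 0.064 against 9.0 to 43.9 CPM, and Slamf1, which encodes the sorting marker CD150, at 4.67 against 31.4 to 73.0 CPM. The neutrophil gene S100a8 was at 8443 CPM in WT 2, at 2361 CPM in Srp72+/- 1 and between 19.3 and 1990 CPM elsewhere. The fits of the members and of the pathway lists are therefore also given without WT 2 and Srp72+/- 1.

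Class II transcripts were present in every library, and the invariant chain transcript was the most abundant of them per length. Levels of different genes are compared in TPM, which corrects for transcript length. Cd74 measured 45.7, 46.5, 21.3 and 68.6 TPM in WT 1 to WT 4, against 49.1, 32.5 and 106 TPM in Srp72+/- 1 to Srp72+/- 3. It ranked first of the 8 genes in 7 of 7 libraries. Ciita, the transactivator, ranked last in 7 of 7, with a median of 0.917 TPM and a range from 0.0713 (WT 2) to 1.30 TPM (WT 1). In WT 1, a model of 680 bases with 18.5 reads held 72.7% of the Ciita TPM. By CPM, Ciita was lower in WT 1 (5.72) than in WT 4 (11.4) and Srp72+/- 3 (10.01).

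Between these ends lay an upper and a lower group of 3 genes each. H2-DMa (median 25.6 TPM), H2-Aa (23.9 TPM) and H2-Ab1 (16.1 TPM) held ranks 2 to 4 in every library. Their order changed from library to library, and their ranges overlapped (9.14 to 39.8, 8.01 to 98.3 and 9.02 to 64.5 TPM). H2-DMb1 (median 4.11 TPM), H2-Eb1 (3.50 TPM) and H2-Oa (3.24 TPM) held ranks 5 to 7 in every library, again in changing order. Part of the TPM of H2-Ab1 and H2-DMa came from short retained-intron models, as given further on. For H2-DMb1 in Srp72+/- 2, short models not annotated as protein-coding held 40.3% and 39.8% of the TPM. Its protein-coding transcript had 1.74 of its 8.74 TPM there. With protein-coding transcripts only, a setting chosen after seeing the data, the median of H2-Ab1 was 6.42 TPM and that of H2-DMa 12.1 TPM. In Srp72+/- 3, H2-Eb1 then ranked above H2-DMa, with nearly equal values (19.13 and 19.1 TPM).

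**Figure D1:**
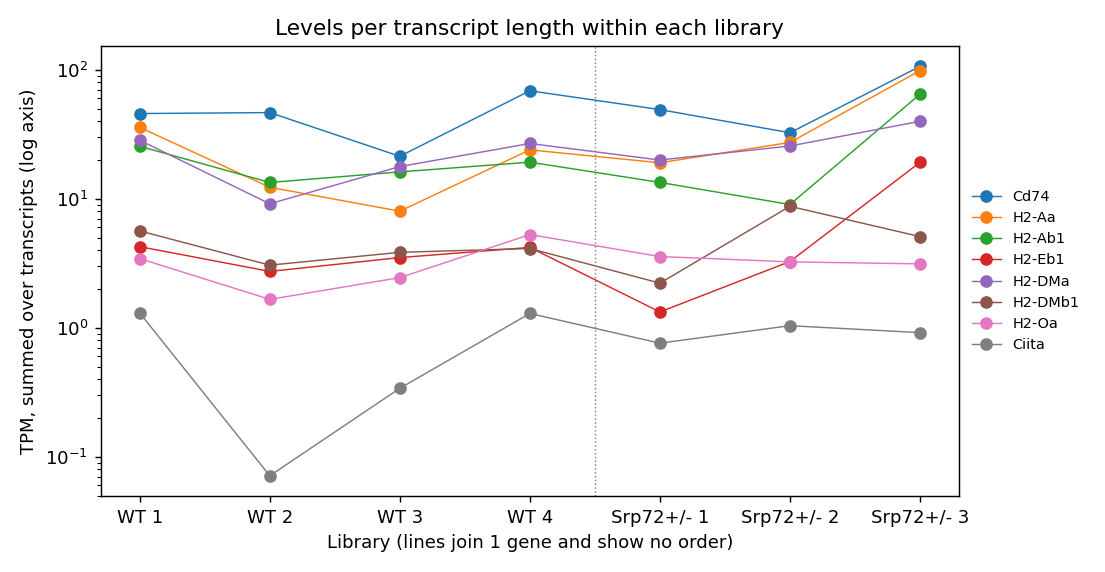
TPM of the 8 MHC class II genes (log axis) in each of the 7 libraries, WT left and Srp72+/- right of the dotted line; lines only join the points of a gene. Cd74 is the highest and Ciita the lowest in each library, and H2-Eb1 lies between 1.33 and 4.25 TPM in 6 libraries and at 19.1 TPM in Srp72+/- 3.

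C57BL/6 mice are known to lack the alpha chain that pairs with the H2-Eb1 product, because the promoter of that gene is deleted. The transcript of this gene, annotated as the pseudogene H2-Ea-ps, had 0 reads in 6 libraries and 2 reads in Srp72+/- 2, while H2-Eb1 had between 51.0 and 1776 reads. A count of 0 allows up to 3 reads, which is between 0.091 and 0.192 CPM in these libraries.

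Between the genotypes, 0 of the 8 members passed a false discovery rate of 0.05 in edgeR's quasi-likelihood test, as did 0% of the 20314 genes tested. At an unadjusted p below 0.05 there were also 0 of 8, where 1.8% of all tested genes lay below it. DESeq2 called 0 of 8 as well, against 0.0447% of all genes with an adjusted p. The libraries of the genotypes overlapped in CPM for all 8 members, and did not overlap for 3.57% of the genes tested. Fitted values in Srp72+/- were higher for 6 members and lower for 2. The median of the 8 log2 fold changes was 0.37, against -0.0067 over all genes tested. No source says that the libraries of a genotype came from separate mice, so the p-values measure the spread between these libraries.

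The classical chains had the highest fitted values, and these rested on a single library. H2-Aa (ENSMUSG00000036594, chromosome 17, 34282744 to 34287823, minus strand), the alpha chain of the I-A molecule, measured 65.2, 35.6, 13.1 and 44.9 CPM in WT 1 to WT 4, against 30.8, 36.3 and 226.9 CPM in Srp72+/- 1 to Srp72+/- 3. Srp72+/- 1 and Srp72+/- 2 lay inside the WT range, and Srp72+/- 3 was 3.48 times the next highest library. The fitted level was 2.47 times WT (95% confidence interval 0.736 to 8.29, log2 fold change 1.30, SE 0.76, edgeR adjusted p = 0.9998).

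H2-Ab1 (ENSMUSG00000073421, chromosome 17, 34257689 to 34269419, plus strand) encodes the beta chain that pairs with H2-Aa. Its values were 31.2, 24.6, 20.3 and 23.9 CPM in WT, against 19.8, 10.4 and 109.2 CPM in Srp72+/-. Srp72+/- 1 and Srp72+/- 2 lay below all 4 WT libraries, and Srp72+/- 3 was 3.50 times the highest of the others. The log2 fold change was 0.90 (SE 0.69, edgeR adjusted p = 0.9998).

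H2-Eb1 (ENSMUSG00000060586, chromosome 17, 34305867 to 34316674, plus strand), the beta chain of I-E, varied most among the libraries. It measured 9.47, 9.34, 7.05 and 9.76 CPM in WT, against 2.70, 5.89 and 53.9 CPM in Srp72+/-. The WT libraries lay close together, with a mean of 8.90 ± 1.25 CPM (SD, n = 4). The 3 Srp72+/- libraries lay on both sides of them, with a mean of 20.8 ± 28.7 CPM (SD, n = 3). The log2 fold change was 1.23 (SE 0.87, edgeR adjusted p = 0.9998).

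Cd74 (ENSMUSG00000024610, chromosome 18, 60803848 to 60812652, plus strand) showed the same library at the top with a smaller distance. It measured 107.3, 167.9, 45.1 and 169.3 CPM in WT, against 105.7, 60.4 and 307.4 CPM in Srp72+/-. Srp72+/- 3 was 1.82 times the highest WT library, and the other Srp72+/- libraries lay inside the WT range. The fitted level was 1.29 times WT, with a 95% confidence interval from 0.490 to 3.39.

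The peptide exchange genes were less variable. H2-DMa (ENSMUSG00000037649, chromosome 17, 34119541 to 34139101, plus strand), the alpha chain of H2-DM, measured 60.5, 30.6, 41.2 and 55.4 CPM in WT, against 38.2, 41.4 and 102.3 CPM in Srp72+/-, with a log2 fold change of 0.37 (SE 0.41). H2-DMb1 (ENSMUSG00000079547, chromosome 17, 34153072 to 34160230, plus strand), a beta chain of H2-DM, measured 16.1, 10.4, 9.88 and 12.3 CPM in WT, against 5.72, 7.99 and 17.1 CPM in Srp72+/-. Here Srp72+/- 3 was 1.06 times WT 1, and Srp72+/- 1 and Srp72+/- 2 lay below all WT libraries. Its log2 fold change was -0.25 (SE 0.44). Its close copy H2-DMb2 was at 0.815 to 3.01 CPM, and the division of reads between the copies is uncertain.

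H2-Oa and Ciita did not have their highest value in Srp72+/- 3. H2-Oa (ENSMUSG00000024334, chromosome 17, 34092340 to 34095234, plus strand), the alpha chain of the H2-DM inhibitor, measured 6.73, 5.05, 4.32 and 10.97 CPM in WT, against 6.41, 5.13 and 7.79 CPM in Srp72+/-, all within the WT range. Ciita (ENSMUSG00000022504, chromosome 16, 10480059 to 10528418, plus strand) measured 5.72, 1.54, 3.21 and 11.4 CPM in WT, against 5.08, 5.27 and 10.01 CPM in Srp72+/-, also all within the WT range. The log2 fold changes were -0.07 (SE 0.45) and 0.31 (SE 0.67), with edgeR adjusted p = 0.9998 for each. H2-Ob, which encodes the partner chain of H2-Oa, had a WT mean of 7.48 ± 3.42 (SD, n = 4) and an Srp72+/- mean of 9.15 ± 5.30 CPM (SD, n = 3). Unlike H2-Oa, it was highest in Srp72+/- 3, at 15.1 CPM, 1.58 times the next library.

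**Figure D2:**
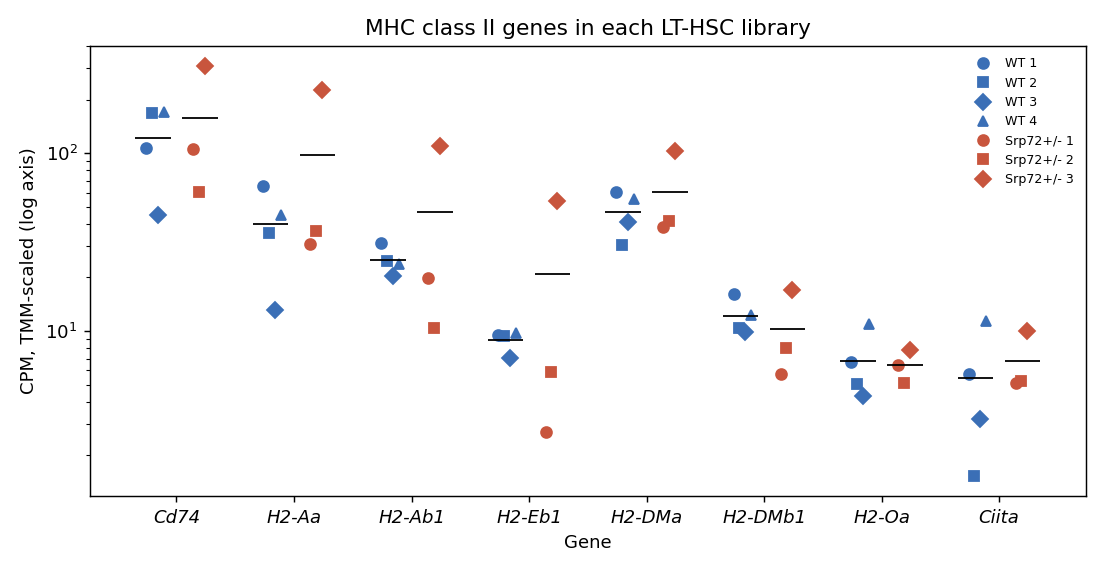
CPM of each member (log axis) in the 4 WT libraries (blue) and 3 Srp72+/- libraries (red), with 1 symbol per library number and a bar at the group mean. Srp72+/- 3 is the highest point for Cd74, H2-Aa, H2-Ab1, H2-Eb1, H2-DMa and H2-DMb1, and lies inside the WT range for H2-Oa and Ciita.

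Set against the median of the other 6 libraries, Srp72+/- 3 was 6.57 times as high for H2-Eb1, 6.31 for H2-Aa, 4.93 for H2-Ab1, 2.89 for Cd74, 2.48 for H2-DMa, 1.93 for Ciita, 1.68 for H2-DMb1 and 1.35 for H2-Oa. This library was singled out after its values were seen, and these ratios are a description. Within a library, the summed TPM of the 3 classical chains was 4.05 times that of the 2 H2-DM chains in Srp72+/- 3 and between 1.15 and 2.33 times in the other 6 libraries. The 1.15 was in Srp72+/- 2, where most of the H2-DMb1 TPM came from short models not annotated as protein-coding. Without Srp72+/- 3 the fitted values of all 8 members were lower in Srp72+/-, and the median of their log2 fold changes was -0.41. The values were then -1.06 for H2-Eb1, -0.73 for H2-Ab1, -0.84 for H2-DMb1, -0.57 for Cd74, -0.25 for H2-Aa, -0.25 for H2-DMa, -0.24 for H2-Oa and -0.09 for Ciita. None of these passed the test (edgeR, smallest unadjusted p = 0.062). Without WT 2 and Srp72+/- 1 the median was 0.62, with 0 of 8 members called and 1 at an unadjusted p below 0.05 in edgeR. In that fit 849 of the 21073 genes tested had an unadjusted p below 0.05.

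**Figure D3:**
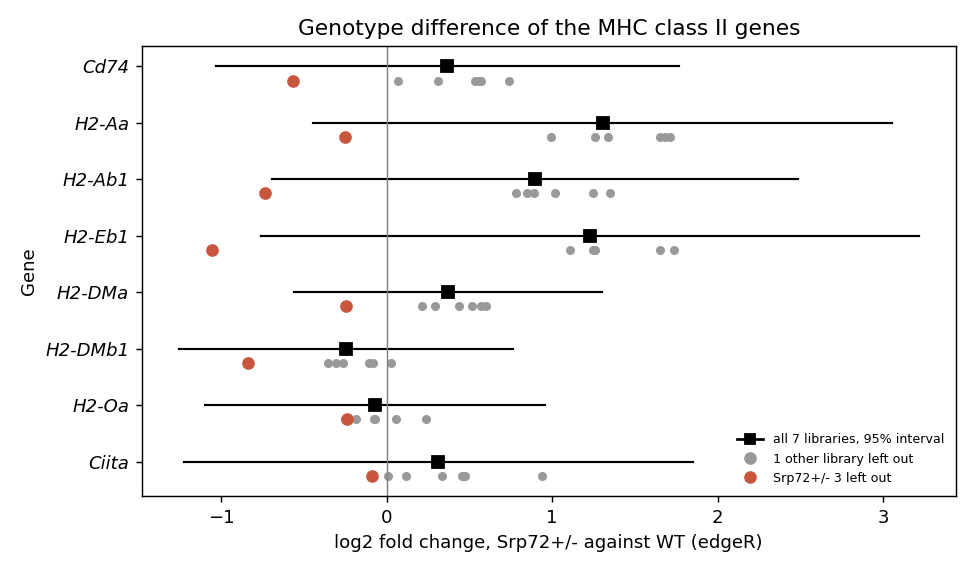
Log2 fold change of each member, Srp72+/- against WT, from edgeR. Black squares with 95% confidence intervals use all 7 libraries, grey points leave out 1 of 6 libraries and red points leave out Srp72+/- 3. Each interval covers 0, and the red points lie below 0 for all 8 genes.

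The members were next set beside B cell transcripts, since B cells carry class II constitutively. In bulk RNA, fewer cells of a type and less RNA per cell cannot be told apart. The mean log2 CPM of 18 B cell genes was 0.04, 3.03, -0.04 and 0.72 in WT 1 to WT 4 and 2.34, 1.23 and -0.26 in Srp72+/- 1 to Srp72+/- 3. Their summed level ranged from 86.6 to 10430 CPM in WT, and went from 301 to 4299 CPM in Srp72+/-. Srp72+/- 3, with the highest levels of all members but H2-Oa and Ciita, had the lowest mean, and 7 of the 18 genes had 0 reads there. In WT 3, with the lowest Cd74 and H2-Aa, 6 of the 18 had 0 reads. In each of these libraries 8 had at most 3 reads.

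Single B cell markers did not all have the same order of libraries. Cd79a, which encodes a chain of the B cell receptor complex, had 4, 217, 1 and 21 reads in WT 1 to WT 4, against 79, 34 and 0 reads in Srp72+/- 1 to Srp72+/- 3. Ms4a1, which encodes CD20, had 8, 18, 5 and 13 reads in WT, against 103, 44 and 11 in Srp72+/-. Srp72+/- 3 lay above the median of the other 6 libraries in 3 of the 18 B cell genes and was the highest in 1. This was Cd79b, which encodes the other signalling chain of the B cell receptor and was picked after its values were seen, at 9.19, 3.77, 7.53 and 11.6 CPM in WT, against 7.78, 11.2 and 18.9 CPM in Srp72+/-. Cd79a was at 0 in the library where Cd74 was at 307.4 CPM, and at 13.9 CPM in WT 2, where Cd74 was at 167.9 CPM.

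Across the 7 libraries no member had a relation to the B cell list that passed the adjusted threshold. Pearson's r between log2 CPM of a member and the mean of the list lay between -0.77 (H2-DMa) and 0.04 (Cd74), and was negative for 7 of 8 members. For H2-DMa, r was -0.765 (exact permutation p = 0.0343, adjusted p = 0.549 over 16 relations) and Spearman's rho was -0.786 (exact permutation p = 0.0480, adjusted p = 0.684). Without WT 2 and Srp72+/- 1, the libraries farthest from the median of the list, r was -0.585. For Cd74, r was 0.041 (exact permutation p = 0.930, adjusted p = 0.946) and rho was -0.143 (exact permutation p = 0.783, adjusted p = 0.835), and r was -0.332 without those libraries. For H2-Ab1, r was -0.439 (exact permutation p = 0.340, adjusted p = 0.686) and rho was -0.464 (exact permutation p = 0.302, adjusted p = 0.684), and r was -0.779 without them. With only Srp72+/- 3 left out, r was 0.495 for Cd74 and 0.079 for H2-Aa (-0.325 with all 7 libraries). It was then between -0.783 (H2-DMa) and -0.119 (H2-Ab1) for the other members.

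Macrophage transcripts were highest in WT 2 as well. The mean log2 CPM of 18 macrophage genes was 0.61, 2.78, 1.13 and 1.85 in WT 1 to WT 4, against 1.94, 1.55 and 1.37 in Srp72+/- 1 to Srp72+/- 3, and their summed level ranged from 75.0 to 500.8 CPM in WT, and went from 97.3 to 241.6 CPM in Srp72+/-. Adgre1, which encodes F4/80, was at 0.056, 13.1, 2.11 and 3.24 CPM in WT, against 8.84, 3.97 and 1.09 CPM in Srp72+/-. Csf1r, the receptor gene for the macrophage growth factor, was at 0.560, 94.9, 23.7 and 11.0 CPM in WT, against 31.7, 11.3 and 3.37 CPM in Srp72+/-. The complement gene C1qa was at 0.280, 3.26, 0.288 and 2.38 CPM in WT, against 0.159, 0.223 and 1.18 CPM in Srp72+/-. Srp72+/- 3 lay above the median of the other 6 libraries in 7 of the 18 macrophage genes and was the highest in 3, among them C1qc (10.8 CPM against at most 4.03) and C1qb (7.07 CPM against at most 4.09), which were picked after their values were seen.

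Of the 8 relations to the macrophage list, 7 had a negative r and Cd74 had a positive one. For Cd74, r was 0.306 (exact permutation p = 0.520, adjusted p = 0.831) and rho was 0.214 (exact permutation p = 0.662, adjusted p = 0.756), and r was 0.288 without WT 1 and WT 2, the libraries farthest from the median of this list. For H2-DMa, r was -0.551 (exact permutation p = 0.198, adjusted p = 0.686) and rho was -0.679 (exact permutation p = 0.110, adjusted p = 0.684), and r was -0.233 without them. With only Srp72+/- 3 left out, r was 0.551 for Cd74, 0.012 for H2-Oa and -0.747 for H2-DMa, and negative for the other members. Over both lists 0 of 16 relations passed an adjusted p of 0.05 and 1 had an unadjusted p below 0.05. A genotype has too few libraries for r within it. In WT, Cd74 was at 167.9 CPM in WT 2 and 169.3 CPM in WT 4, which had B cell means of 3.03 and 0.72, and at 45.1 CPM in WT 3, with -0.04. Among the Srp72+/- libraries, Srp72+/- 3 had the lowest B cell mean and the highest value of all 8 members.

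**Figure D4:**
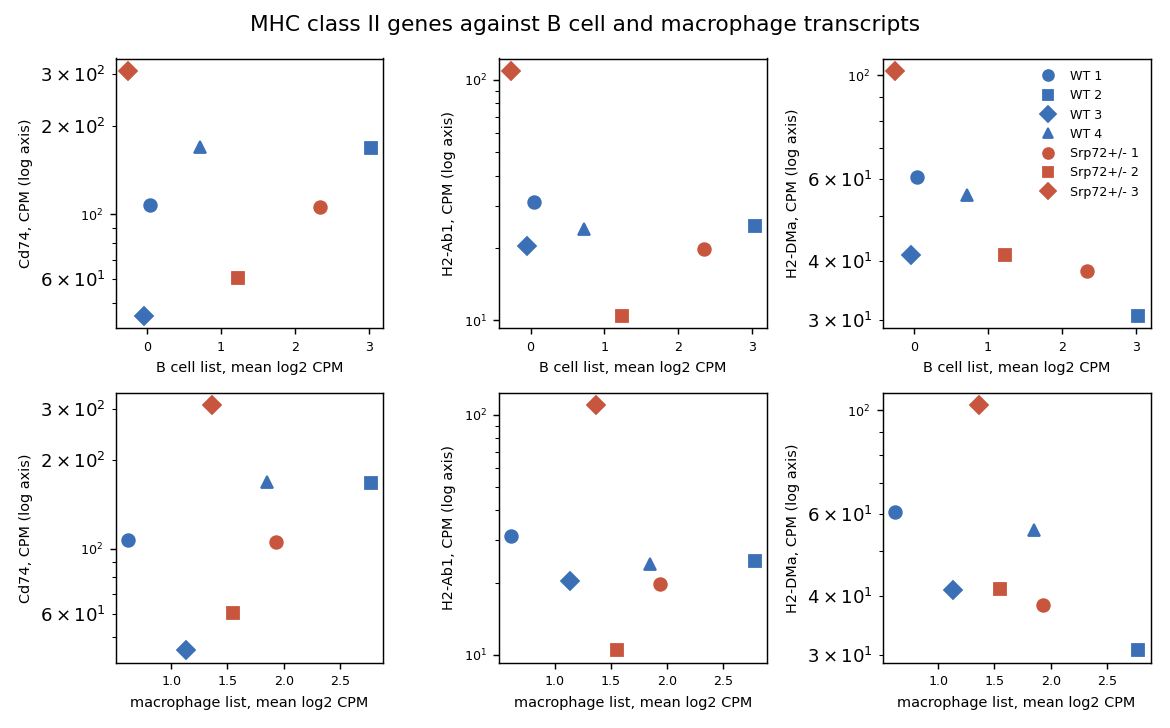
CPM (log axis) of Cd74, H2-Ab1 and H2-DMa against the mean log2 CPM of 18 B cell genes (top) and 18 macrophage genes (bottom), 1 point per library. Srp72+/- 3 is the highest point in each panel and has the lowest B cell mean (-0.26), and WT 2 has the highest mean of both lists (3.03 and 2.78).

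Dendritic and plasma cell markers had their lowest summed levels in Srp72+/- 3. The summed level of 12 dendritic cell genes was between 18.2 and 32.7 CPM in WT, and lay between 14.7 and 42.8 CPM in Srp72+/-. Plasma cell genes (7) summed to 5.61 CPM in Srp72+/- 3 against 6.95 to 398.7 CPM in the other libraries. By mean log2 CPM, Srp72+/- 3 was the lowest for the dendritic cell genes (-0.93, with WT 3 at -0.89). It was not the lowest for the plasma cell genes, at -0.36 against -1.02 in WT 1 and -0.70 in WT 4. The sum of 16 stem cell genes was 2953 CPM in Srp72+/- 3, 1743 and 2811 CPM in Srp72+/- 1 and Srp72+/- 2, 326 CPM in WT 2 and 2758 to 3374 CPM in the other WT libraries. The part of any of these cell types in the class II levels was not tested.

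Genes that act with class II were taken from lists chosen by function. Among class II promoter-binding factors, 0 of 9 passed the test (4 with higher and 5 with lower fitted values, median -0.05, and 5 with higher and 4 with lower ones without WT 2). The values with the smallest p were 0.53 for Rfxank and 0.31 for Nfyc, subunits of the RFX and NF-Y complexes, and -0.23 for Kat2b, a histone acetyltransferase gene. Among 11 factors upstream of Ciita, 0 passed, 2 were higher and 9 lower, with a median of -0.15. Without WT 2, 7 of these were higher and 4 lower (median 0.18), and without WT 2 and Srp72+/- 1, 5 were higher and 6 lower (median -0.10). Usf1, a factor of one Ciita promoter, had -0.71 and the interferon gamma receptor gene Ifngr1 -0.56.

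Genes of antigen processing and class II turnover had lower fitted values in 11 of 11 members, with a median of -0.29, and 0 passed. For 9 of the 11 genes this direction rested on WT 2. That library was the highest of the 7 for 10 of the 11 genes, as it was for 10 of 10 neutrophil and 5 of 6 monocyte markers. The part of those cells was not tested. Without WT 2, 9 of the 11 were higher and 2 lower (median 0.26), and without WT 2 and Srp72+/- 1, 7 were higher and 4 lower (median 0.17), with 0 passing in either fit. In the fit without WT 2, 1 of the 11 had an unadjusted p below 0.05 in edgeR, as did 962 of the 19856 genes tested. Ctsl, a cathepsin gene, measured 20.96, 17.97, 35.92 and 30.62 CPM in WT, with WT 2 the lowest of these, against 13.61, 15.98 and 18.65 CPM in Srp72+/-. It had a WT mean of 26.4 ± 8.4 (SD, n = 4) and an Srp72+/- mean of 16.1 ± 2.5 CPM (SD, n = 3), with a log2 fold change of -0.71 (SE 0.33, edgeR unadjusted p = 0.0584). Sppl2a, the protease that removes the membrane stub of the invariant chain, had -0.29 and Ctsb, another cathepsin gene, -0.46. Ctss, the cathepsin that degrades the invariant chain in B cells and dendritic cells, was at 104.1 CPM in WT 2, 33.7 CPM in Srp72+/- 1 and 0.504 to 12.1 CPM in the other 5 libraries. Srp72+/- 3, at 6.49 CPM, was below every other library except WT 1 in Ctss while above all of them in Cd74.

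Of the Cd74 ligands and co-receptors 0 of 5 passed (2 higher and 3 lower, and 4 higher and 1 lower without WT 2), with -1.02 for Cxcr2, 0.27 for Mif, which encodes the cytokine bound by CD74, and -0.27 for Cd44. Of the costimulatory ligands 0 of 7 passed (2 higher and 5 lower), with -0.53 for Cd86, -0.58 for Tnfsf9 and -0.43 for Cd80. These ligands were 3 higher and 4 lower without WT 2, and 1 higher and 6 lower without WT 2 and Srp72+/- 1. In MHC class I presentation, 0 of 7 genes passed, 5 being higher and 2 lower (median 0.21). Without WT 2, 3 were higher and 4 lower (median -0.05), and without WT 2 and Srp72+/- 1, 6 were higher and 1 lower (median 0.21). The transporter gene Tap1 measured 73.4, 37.6, 55.6 and 50.4 CPM in WT, against 46.5, 56.0 and 165.8 CPM in Srp72+/- (log2 fold change 0.72). B2m, the light chain gene of class I, had 0.31 and Tapbp, a loading chaperone gene, -0.40. Of the class I genes, Srp72+/- 3 was highest in Tap1, B2m, H2-K1, H2-D1 and Nlrc5, by factors of 2.26, 1.68, 1.27, 1.19 and 1.47 over the next library.

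The members varied together across the libraries to differing degrees. Pearson's r of each member with the mean of the other 7 was 0.90 for H2-DMa, 0.90 for H2-Aa, 0.85 for H2-Ab1, 0.83 for H2-Eb1, 0.77 for Cd74, 0.74 for H2-DMb1, 0.63 for H2-Oa and 0.54 for Ciita. These are descriptions over 7 libraries that share Srp72+/- 3 as an extreme. Ciita was closest to H2-Oa (0.81) and H2-DMa (0.78), and had 0.35 to Cd74. Among 10379 protein-coding genes of at least 5 CPM, those with the highest r to the mean of the members over these 7 libraries included Celf2 (0.987), Slu7, Nrde2, Tmem39b, Snrpd2, Samd1, Mrps10, Gar1 and Wbp2 (0.960). In each of them Srp72+/- 3 was the highest library, from 1.33 times (Celf2) to 3.47 times (Nrde2) the median of the other 6. The mean log2 CPM of the members was also highest in Srp72+/- 3 (5.71, against 3.62 to 4.65). The choice by r therefore favours genes that are highest there, and their peak is no separate result.

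Transcript models gave further detail, with the caution that they are estimates of the authors' tool from shared sequence. Cd74 has an 8-exon and a 9-exon main transcript, of which the second is 192 bases longer and encodes the invariant chain form with a thyroglobulin-type domain. The 9-exon transcript took 8.39%, 12.4%, 2.50% and 10.2% of the gene's TPM in WT 1 to WT 4 and 16.2%, 12.2% and 9.86% in Srp72+/- 1 to Srp72+/- 3. The short form was thus the main one in every library, and in Srp72+/- 3 the share of the long form lay inside the range of the others. The mean share was 8.37% ± 4.24 (SD, n = 4) in WT and 12.7% ± 3.2 (SD, n = 3) in Srp72+/-, with overlapping groups.

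For H2-Ab1, the 2 retained-intron models held 71.1%, 69.9%, 60.2% and 69.9% of the TPM in WT 1 to WT 4 and 40.1%, 50.3% and 59.98% in Srp72+/- 1 to Srp72+/- 3. The lowest WT and the highest Srp72+/- value are close, and the share was noticed among several, so no test was made. For H2-DMa, the retained-intron model held 29.3% to 56.6% in WT and 50.2% to 52.7% in Srp72+/-.

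Ciita is known to be transcribed from alternative promoters, of which pI serves dendritic cells and macrophages, pIII lymphoid cells and pIV the response to interferon gamma. Its 8 transcript models start in 3 groups on chromosome 16, at 10480059 to 10480164, 10488178 to 10488279 and 10489746 to 10489783, in the order in which these promoters lie. Models of the middle group held 74.8, 23.6, 58.9 and 240.9 estimated reads in WT 1 to WT 4, against 70.2, 69.4 and 313.3 reads in Srp72+/- 1 to Srp72+/- 3. That is 73.5% to 100% of the gene's reads in WT and 58.8% to 94.97% in Srp72+/-. The most upstream group had 0 to 2.1 reads in WT and 3.0 to 33.1 reads in Srp72+/-. These reads are not scaled for depth. The 2.1 reads were in WT 1, of 18054322 reads, and the 3.0 in Srp72+/- 3, of 35247472 reads. The 33.1 reads, in Srp72+/- 2, were all given to a single retained-intron model. The most downstream group had 0 to 25.0 reads in WT and 13.5 to 15.7 reads in Srp72+/-. Only the longest model, of the middle group, includes the last 1992 bases of the gene, and Dexi overlaps Ciita on the other strand. Reads from those bases can be given to no other Ciita model whatever their start, so these shares are not a measure of promoter use.

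**Figure D5:**
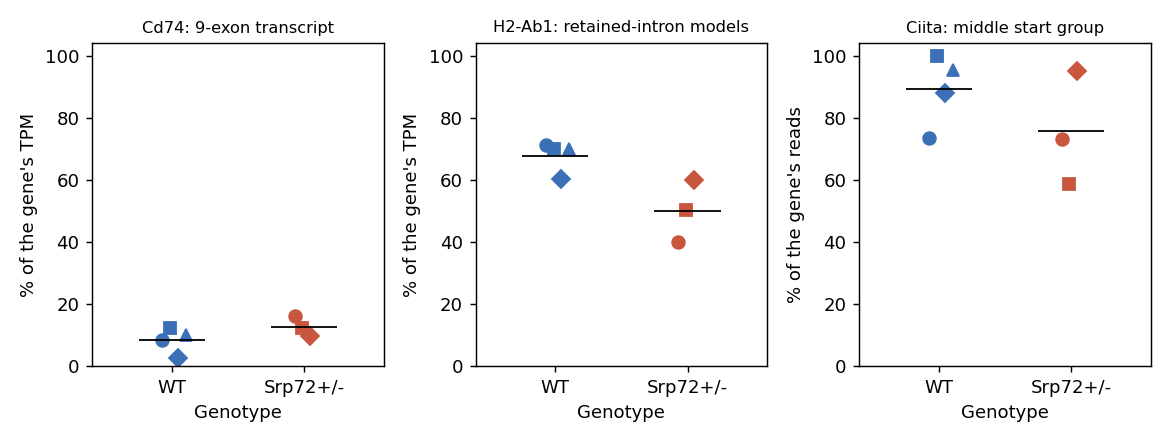
Share of Cd74 TPM from the 9-exon transcript, share of H2-Ab1 TPM from retained-intron models, and share of Ciita reads from models of the middle start group, each in percent, 1 point per library with a bar at the group mean. The 9-exon share stays at or below 16.2%, and the H2-Ab1 share is 60.2% to 71.1% in WT and 40.1% to 59.98% in Srp72+/-.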

How the data were processed

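Amplified RNA (NuGEN Ovation V2) of the sorted cells was sequenced from TruSeq V2 libraries, per the labels' protocols. The deposited tables hold estimated counts (expected counts) and TPM per transcript, with lengths, made with Salmon 0.12.0 per the submitters' processing notes, which name mm10 and GRCm38.p6. Neither strand setting nor transcript release is stated there. Genes on the opposite strand overlap 4 of the members (Ciita, H2-Oa, H2-DMa and H2-Eb1), so their reads are uncertain there. Reads carry no molecular identifiers, and floors cover counting error only.

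Of 136288 transcripts, 136176 matched GENCODE M21 (GRCm38), from which coordinates come. The 112 others were left out and held 0.0413% to 0.0622% of the reads. Estimated counts were summed per gene and rounded, TPM summed. The function filterByExpr (count of at least 10, total of at least 15) kept 20314 genes. TMM scaling and edgeR 4.0.16 (robust quasi-likelihood fit and test, no covariate, all 7 libraries) followed, with Benjamini-Hochberg adjustment, in R 4.3.3. The procedure was tested on simulated data. For log2 CPM the prior count was 2. Correlations were tested by two-sided exact permutation of all pairings, adjusted over 16 relations.

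Alternatives were RLE scaling, plain library totals, no filter, DESeq2 1.42.0, a stricter filter (1 CPM in 3 libraries, with a mean count of 10), leaving out each library, an offset for transcript length, blocking on the replicate number, and for correlations a prior count of 0.5 and markers of at least 1 CPM. Named were all members, from each pathway list the 3 tested genes with the smallest p, 3 markers each of B cells, macrophages and stem cells, and the 10 genes most alike. Some genes that this rule names are not reported here. Ctss, S100a8, Cd79b, C1qb and C1qc, the class I genes in Srp72+/- 3 and the promoter motif were picked after values were seen. The members and lists were chosen with earlier results of these data known.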

Additional observations from a re-analysis of the deposited data

Results flagged for a closer look

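Among the 4 WT libraries, 3 measures had 1 library far from the rest by Dixon's ratio at the 95% level, where chance flags about 1 in 20 groups and 17 were looked at. H2-Eb1 was at 7.05 CPM in WT 3, below 9.34 to 9.76 CPM in the other WT libraries. The mean log2 CPM of the stem cell markers was 2.64 in WT 2, against 6.75 to 7.004. That of the dendritic cell markers was 0.88 in WT 2, against -0.89 to -0.66.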

How the results depend on the processing

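The count of 0 called members held under all 15 alternatives of the fit. The count of called genes over all genes was 0 with all 7 libraries, 9 with DESeq2, and between 0 and 1 when a library was left out (1 gene without WT 4, the predicted gene Gm28439, adjusted p = 0.0267, named after its value was seen). The median log2 fold change of the members was between -0.41 (without Srp72+/- 3) and 0.69 when 1 library was left out, and only the fit without Srp72+/- 3 turned it. The ranges with 1 library left out were -0.57 to 0.74 for Cd74, -0.25 to 1.71 for H2-Aa, -0.73 to 1.35 for H2-Ab1, -1.06 to 1.73 for H2-Eb1, -0.25 to 0.60 for H2-DMa, -0.84 to 0.026 (without Srp72+/- 1) for H2-DMb1, -0.25 to 0.24 for H2-Oa (above 0 without WT 4 or Srp72+/- 2) and -0.087 to 0.94 for Ciita. H2-DMb1 turned to 0.074 with the transcript length offset. The cause of these changes was not tested. With the replicate number as a block 0 members and 0 genes were called (139 genes at unadjusted p below 0.05, against 365 without it) and H2-Oa turned to 0.27. Number 4 occurs only in WT, so WT 4 adds nothing to the genotype difference in the blocked fit, which also has fewer degrees of freedom. The 2 fits are therefore not alike in the libraries they use. The block also moved H2-Eb1 from 1.23 to 0.0008, H2-Ab1 from 0.90 to 0.08, H2-Aa from 1.30 to 0.78 and Ciita from 0.31 to 1.09. The numbers are not stated to pair mice, and the deviations of same-numbered libraries from their group means had r of -0.32, -0.16 and 0.002. In fits chosen after seeing the data, the medians of the pathway lists turned without WT 2 to 0.042 (relatives), 0.088 (promoter-binding factors), 0.18 (upstream of Ciita), 0.26 (processing), 0.52 (Cd74 ligands and co-receptors) and -0.049 (class I), and without WT 2 and Srp72+/- 1 to 0.082 (relatives), 0.0084 (promoter-binding factors), 0.17 (processing) and 0.36 (Cd74 ligands and co-receptors). The count of relations past the threshold was 0 under all 10 alternatives. The r of Cd74 and the B cell list turned to -0.055 with plain library totals and was -0.27 to 0.50 with 1 library left out, and that of H2-Oa and the macrophage list turned to 0.015 with a prior count of 0.5 and was -0.25 to 0.34. With 1 library left out, r was -0.76 to 0.079 for H2-Aa and the B cell list and -0.64 to 0.32 for Ciita and the macrophage list. The common biological coefficient of variation over all genes was 0.628, and levels at or under 3 reads, such as Cd79a in WT 3 and Srp72+/- 3, are limited by depth.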
